A study of Mus musculus with 14 samples.

Results

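Cytochrome P450 enzymes, the reductase that supplies them with electrons and the epoxide hydrolases that act on their products were followed in mouse adipose tissue through 7 genes. The genes are Cyp2f2, Cyp2e1, Cyp4b1, Cyp1b1, Por, Ephx1 and Ephx2, 7 of the 54955 gene symbols or unnamed IDs in the table, and they were taken by gene name. They were chosen from measured values, namely the difference between the 2 groups of these same libraries, in which Cyp2f2 and Cyp2e1 had already been seen to be low. That difference is therefore given for them as a description, with no test. The mice were C57BL/6, their adipose tissue was taken for RNA sequencing at postnatal week 21, and they comprised 7 wild-type (WT) mice and 7 whose genotype is given as KO-Dectin1, a knockout of the β-glucan receptor of myeloid cells encoded by Clec7a. No treatment, fat depot, targeted exon or clone is named for either group, and each library is labelled as its own mouse, so the spread given is that between these libraries. The question the design poses is how the adipose transcriptome differs when Dectin-1 is missing.

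P450 enzymes of the endoplasmic reticulum insert an oxygen atom into lipids, hormones, drugs and solvents, and most of them receive the electrons for this from a single flavoprotein, the P450 oxidoreductase encoded by Por. Some of the products are epoxides, which the microsomal epoxide hydrolase Ephx1 and the soluble epoxide hydrolase Ephx2 open to diols; Ephx2 acts on epoxides of arachidonic and linoleic acid, which are signalling lipids. The family is best known from liver and, for Cyp2f2, from the club cells of the airway, while Cyp2e1 is also a gene of fat cells and Cyp1b1 is known from stromal cells.

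The libraries labelled KO did not stand apart from WT in the targeted gene: Clec7a was at 4.02 to 10.5 TPM (a share of the transcripts of a library, scaled for gene length) in KO and 4.1 to 18.9 TPM in WT, and a gene-level value does not show which exons were read. Directions below therefore compare libraries by their labels, KO against WT. The adipose label was borne out by the fat-cell genes, with Adipoq (adiponectin) at 683 to 3000 TPM in KO and 2001 to 4068 TPM in WT. Other tissue was present to an uneven degree. The B-cell gene Cd79a was at 177 to 720 TPM in 11 libraries and at 1.52 TPM or less in KO replicate 7, WT replicate 4 and WT replicate 7, and the liver gene Alb ranged from 8.88 to 2153 TPM. In bulk tissue, fewer cells of a type and less RNA per cell cannot be told apart.

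All 7 genes were above the filter of 1 TPM in at least 7 libraries. Over all 14 libraries, Cyp2e1 had the highest level of the 7, with a mean of 1710 TPM, which ranked 85 among the 14719 genes tested. Por followed at 257 TPM, Ephx2 at 230, Cyp2f2 at 121, Ephx1 at 72.0, Cyp4b1 at 40.0 and Cyp1b1 at 10.1 TPM. Neighbours at the ends of this order were kept apart within libraries, with Cyp2e1 above Por and Cyp4b1 above Cyp1b1 in 14 of 14 libraries. Por and Ephx2 were not: Por was the higher in 10 of 14. Cyp2f2 was above Ephx1 in 7 of 7 WT libraries and in 2 of 7 KO libraries. The spread was also uneven. The highest library exceeded the lowest by 22.2-fold for Cyp2f2 and 9.18-fold for Cyp2e1, but by 3.14-fold for Ephx1.

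**Figure D1:**
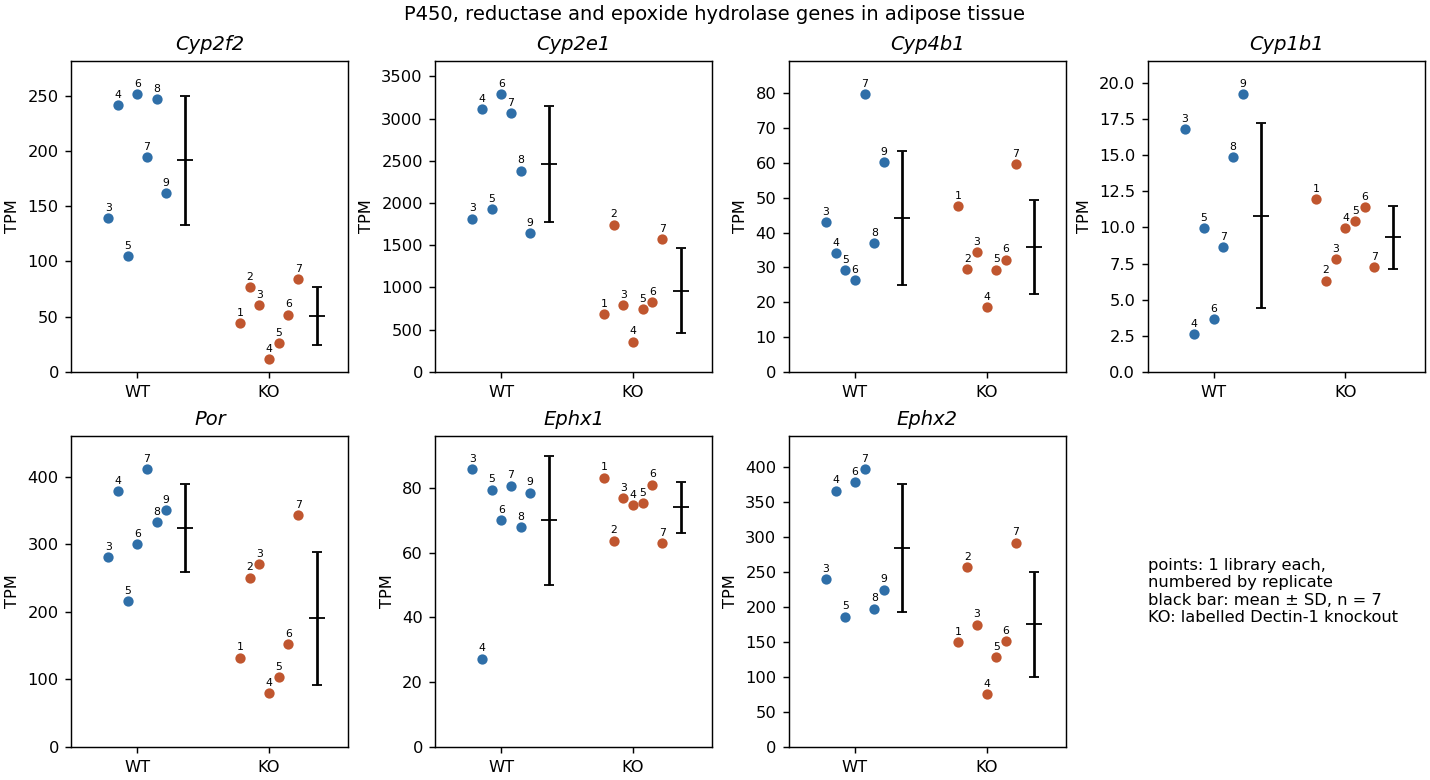
TPM of the 7 genes in each library (1 panel per gene, linear axis from 0), with WT and KO libraries as numbered points and the mean ± SD (n = 7) as a black bar. The groups part in the Cyp2f2 panel, where the highest KO library is at 83.8 TPM and the lowest WT library at 105 TPM, and overlap in the other panels.

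Cyp2f2 (ENSMUSG00000052974), a P450 that oxidises small aromatic compounds such as naphthalene, was lower in every KO library than in any WT library. It was at 11.3 TPM in the lowest KO library, 51.8 at the median and 83.8 in the highest, against 105, 194.5 and 251 TPM in WT. The lowest KO value was that of replicate 4 and the highest that of replicate 7, so the KO libraries still differed widely among themselves. The means were 50.6 ± 26.0 TPM in KO and 191 ± 58.1 TPM in WT (SD, n = 7 each), which puts KO at 26.4% of WT. On the log2(TPM + 1) scale the difference was -2.07 ± 0.38 (SE).

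Cyp2e1 (ENSMUSG00000025479), which oxidises ethanol, acetone and other small molecules, showed a smaller difference with some overlap. Its level was 358 TPM in the lowest KO library, 791 at the median and 1744 in the highest, against 1639, 2382.5 and 3287 TPM in WT. All KO libraries but replicate 2 lay below the lowest WT library. The means were 959 ± 504 TPM in KO and 2461 ± 690 TPM in WT (SD, n = 7 each), or 39.0% of WT, with a log2 difference of -1.48 ± 0.32 (SE). Because Cyp2e1 supplied 71.4% ± 9.8 of the TPM of all 95 P450 symbols in KO and 82.5% ± 6.7 of it in WT (SD, n = 7 each), the summed P450 level followed it. That sum was 549 to 2015 TPM in KO and 2071 to 3729 TPM in WT.

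The stretches of DNA before the start sites of Cyp2f2 and Cyp2e1, which lay lowest in KO, are shown with that of Por, which varied with them, and that of Cyp1b1, which varied inversely to Cyp2e1. The sequences are from RefSeq (build GRCm38.p6), which gave a promoter for 6 of the 7 genes, and each covers the 250 bases before the start, 5′ to 3′ on the gene's strand. The positions are chr7:27119705-27119954 on the plus strand for Cyp2f2, chr7:140763569-140763818 on the plus strand for Cyp2e1, chr5:135688895-135689144 on the plus strand for Por and chr17:79715062-79715311 on the minus strand for Cyp1b1. Capitals mark matches, on either strand, to TATAAA (a core promoter box), GCGTG (the core bound by the aryl hydrocarbon receptor, CACGC on the other strand) and AGGTCA (a nuclear receptor site).
Cyp2f2: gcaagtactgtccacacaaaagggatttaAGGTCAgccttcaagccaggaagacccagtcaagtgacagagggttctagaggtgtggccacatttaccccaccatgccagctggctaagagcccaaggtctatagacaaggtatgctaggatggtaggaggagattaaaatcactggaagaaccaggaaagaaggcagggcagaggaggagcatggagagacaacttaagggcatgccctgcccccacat
Cyp2e1: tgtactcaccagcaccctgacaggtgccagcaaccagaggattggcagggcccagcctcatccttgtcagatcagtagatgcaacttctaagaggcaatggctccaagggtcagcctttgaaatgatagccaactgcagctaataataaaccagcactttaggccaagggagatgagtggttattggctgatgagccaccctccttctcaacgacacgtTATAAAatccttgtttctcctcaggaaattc
Por: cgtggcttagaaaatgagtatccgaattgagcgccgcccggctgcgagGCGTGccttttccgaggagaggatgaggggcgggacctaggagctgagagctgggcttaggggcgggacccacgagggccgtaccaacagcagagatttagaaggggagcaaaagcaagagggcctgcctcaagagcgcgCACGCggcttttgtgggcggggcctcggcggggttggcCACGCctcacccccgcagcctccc
Cyp1b1: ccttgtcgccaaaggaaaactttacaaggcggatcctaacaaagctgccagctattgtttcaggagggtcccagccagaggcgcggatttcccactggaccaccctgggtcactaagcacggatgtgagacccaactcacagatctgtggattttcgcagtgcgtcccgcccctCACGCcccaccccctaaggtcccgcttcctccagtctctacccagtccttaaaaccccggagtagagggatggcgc
Of the 4 sequences, that of Cyp2e1 held a TATAAA, starting 31 bases before the start, and that of Cyp2f2 held an AGGTCA 221 bases before it. The core GCGTG was matched at 3 places in Por and 1 in Cyp1b1, a gene known as a target of the aryl hydrocarbon receptor. Such matches are common. Among 32851 promoters of 300 bases (250 before and 50 after the start), 13.6% held TATAAA, 32.4% held GCGTG and 16.3% held AGGTCA on either strand. Over those 300 bases, CpG pairs numbered 0 in Cyp2f2, 4 in Cyp2e1, 16 in Cyp1b1 and 27 in Por, and the shares of G and C were 50.3%, 49.7%, 58.3% and 67.3%, against a median of 52.7% over all promoters. The motif CCAAT was also searched on both strands, and in these 300 bases it was matched in Cyp2e1 at 2 places and in none of the other 3. The GC box, GGGCGG, was matched at 4 places in Por and at 1 in Cyp1b1, and in neither Cyp2f2 nor Cyp2e1. No match was found in any of the 4 to TGANNNNGC, the core of the antioxidant response element. The motif of C/EBP factors was searched as TTNNGNAA and was likewise matched in none. These matches are descriptions of letters, and binding was not measured.

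Por (ENSMUSG00000005514) was at 79.5 TPM in the lowest KO library, 152 at the median and 343 in the highest, against 216, 333 and 411 TPM in WT. The groups overlapped, with 4 of 7 KO libraries below the lowest WT library. The means were 190 ± 98.6 TPM in KO and 325 ± 65.2 TPM in WT (SD, n = 7 each), with a log2 difference of -0.91 ± 0.30 (SE). Ephx2 (ENSMUSG00000022040) was at 75.5 TPM in the lowest KO library, 152 at the median and 292 in the highest, against 186, 240 and 397 TPM in WT. Here 5 of 7 KO libraries lay below the lowest WT library. The means were 176 ± 75.0 TPM and 285 ± 92.1 TPM (SD, n = 7 each), with a log2 difference of -0.74 ± 0.28 (SE).

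Markers of several cell types differed in level between the groups, none past the threshold. Of 14 adipocyte markers 13 were lower in KO, with a median log2 difference of -0.56 and none past the threshold (limma, smallest adjusted p = 0.28). Their summed level was 17804 to 82169 TPM in KO and 43328 to 85878 TPM in WT, and none was listed at 0. Adipose progenitor markers were lower in 10 of 12 (median -0.47; 517 to 1476 TPM in KO and 733 to 2753 in WT) and macrophage markers in 8 of 10 (median -0.50; 582 to 1815 and 429 to 2395 TPM). All 6 B-cell markers tested were higher (median 1.23; 6.70 to 1765 and 2.42 to 1280 TPM), as were all 7 T-cell markers (median 0.95; 18.5 to 705 and 4.48 to 711 TPM), and all 7 skeletal muscle markers were lower (median -1.76; 23.6 to 6879 and 35.4 to 21367 TPM). For the B-cell and for the T-cell markers the smallest adjusted p was 0.67 (limma). Their medians take in KO replicate 7, WT replicate 4 and WT replicate 7, where Cd79a was at 1.52 TPM or less. The part of these cell types in the differences of the 7 genes was not tested. The 4 genes Cyp2f2, Cyp2e1, Por and Ephx2 were therefore also expressed as a percentage of Adipoq in the same library. On that scale Por was at 11.5% ± 1.78 in KO and 11.2% ± 1.92 in WT, and Ephx2 at 11.05% ± 1.45 and 9.53% ± 1.10 (SD, n = 7 each), so neither mean was lower in KO on this scale. Adipoq itself had a log2 difference of -0.96, one of the lowest of the 14 markers, and against the mean of all 14, given below, both were lower. Cyp2f2 was at 1.65% to 4.56% in KO and 4.82% to 10.6% in WT, without overlap. Cyp2e1 was at 42.0% to 72.9% in KO and 61.2% to 102% in WT, with overlap. Relative to Por, the electron donor, Cyp2f2 was at 14.2% to 34.1% in KO and 46.2% to 83.6% in WT. The share of all genes without overlap on these scales was not computed. Cyp2f2 was also chosen on this contrast, so nothing is read from its lack of overlap. With the mean of the adipocyte markers as a covariate, the log2 difference was -1.49 ± 0.22 (SE) for Cyp2f2, -1.04 ± 0.21 for Cyp2e1, -0.43 ± 0.12 for Por and -0.31 ± 0.15 for Ephx2.

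**Figure D2:**
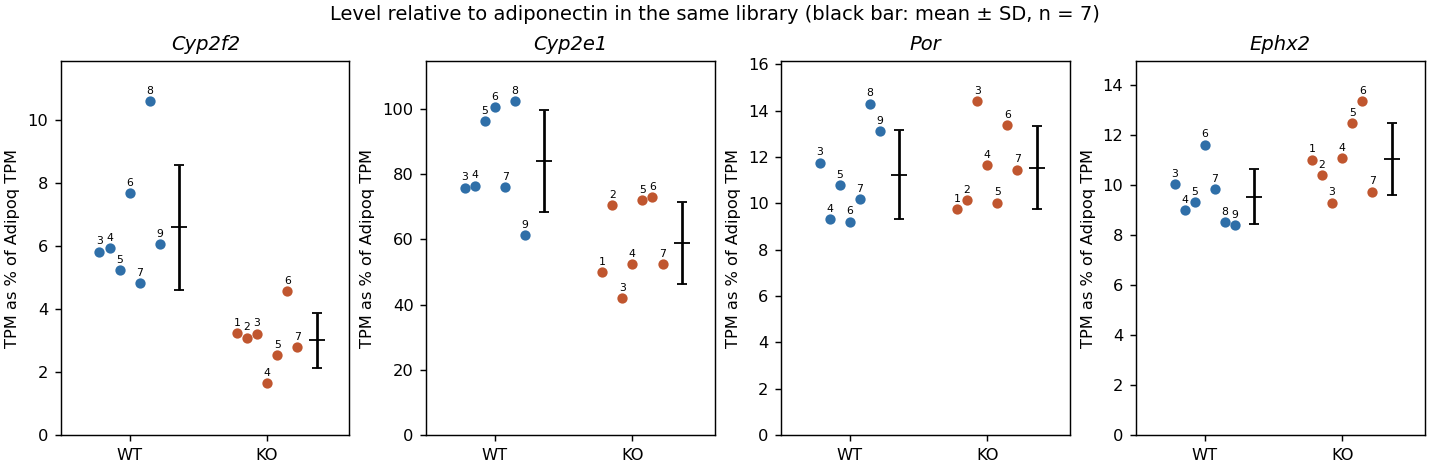
TPM of Cyp2f2, Cyp2e1, Por and Ephx2 as a percentage of the TPM of Adipoq in the same library, with WT and KO libraries as numbered points and the mean ± SD (n = 7) as a black bar. Cyp2f2 lies below 4.6% in every KO library and above 4.8% in every WT library, while Por covers nearly the same range in both groups.

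The 3 remaining genes showed small differences against their spread. Ephx1 (ENSMUSG00000038776) was at 63.0 TPM in the lowest KO library, 75.4 at the median and 83.1 in the highest, against 27.3, 78.6 and 85.7 TPM in WT. Its log2 difference was 0.15 ± 0.21 (SE), and it turned to -0.06 without WT replicate 4, the library at 27.3 TPM. Cyp4b1 (ENSMUSG00000028713), which hydroxylates fatty acids and foreign compounds, was at 18.5 TPM in the lowest KO library, 32.2 at the median and 59.5 in the highest, against 26.3, 36.9 and 79.7 TPM in WT. The groups overlapped over most of this range, and the log2 difference was -0.27 ± 0.27 (SE), or 0.04 with the adipocyte markers as a covariate. Cyp1b1 (ENSMUSG00000024087), which hydroxylates oestradiol and polycyclic compounds, was at 6.31 to 12.0 TPM in KO, with a median of 9.97, and at 2.61 to 19.2 TPM in WT, with a median of 9.93. All KO libraries lay within the range of WT, and the log2 difference was 0.01 ± 0.36 (SE), with either sign among the alternative settings.

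Of the 7 genes, 5 were lower in KO, with a median log2 difference of -0.74 against 0.04 over all genes tested. The groups did not overlap for 1 of the 7, Cyp2f2; over all genes tested 0.319% did not overlap, 0.211% with KO lower. Since the genes were picked on this contrast, nothing is read from these counts. Over all genes, limma called 0.0204% at an adjusted p under 0.05, and 11.4% had an unadjusted p under 0.05, 6.74% with KO lower.

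How the genes varied among mice, beyond the difference between the groups, was a measure the choice of genes did not use. Log2(TPM + 1) values less their group means were correlated over the 14 libraries, for the 21 pairs of genes and for each gene with the adipocyte marker mean, 28 relations in all (permutation within groups, 2-sided, Benjamini-Hochberg over the 28). Of the 28, 16 passed an adjusted p of 0.05. The share of other gene pairs that would pass in these libraries was not computed, so the count is not read as particular to these genes.

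Cyp2f2, Cyp2e1, Por and Ephx2 varied together from mouse to mouse. The highest relation among genes was that of Cyp2e1 with Ephx2 (Pearson r = 0.92, adjusted permutation p = 0.0017; Spearman rho = 0.81, adjusted p = 0.0074). Without the 2 libraries farthest from the median of Cyp2e1 it was 0.87. Cyp2f2 was related to Por (r = 0.88, adjusted permutation p = 0.0011; rho = 0.85, adjusted p = 0.0054; 0.80 without the 2 farthest libraries) and to Cyp2e1 (r = 0.86, adjusted permutation p = 0.0018; rho = 0.84, adjusted p = 0.0054; 0.78 without the 2 farthest libraries). In the 11 libraries rich in lymphoid transcripts these 3 relations were 0.90, 0.87 and 0.84. Cyp2e1 and Por were less closely related (r = 0.77, adjusted permutation p = 0.014; rho = 0.68, adjusted p = 0.037; 0.62 without the 2 farthest libraries), and this relation passed neither without them nor in the 11 libraries, where r was 0.67.

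The same 4 genes followed the fat-cell genes. The adipocyte marker mean was related to Por at r = 0.94 (adjusted permutation p = 0.00028; rho = 0.93, adjusted p = 0.0014) and to Ephx2 at r = 0.89 (adjusted permutation p = 0.0013; rho = 0.86, adjusted p = 0.0042). It was related to Cyp2f2 at r = 0.86 (adjusted permutation p = 0.0019; rho = 0.79, adjusted p = 0.011) and to Cyp2e1 at r = 0.82 (adjusted permutation p = 0.0081; rho = 0.68, adjusted p = 0.037). Without the 2 libraries farthest in the marker mean, r was 0.88, 0.78, 0.72 and 0.62 in the same order. In the 11 lymphoid-rich libraries it was 0.94, 0.82, 0.90 and 0.73. The relation of Cyp2e1 to the markers passed in neither of these subsets; the other 3 passed in both. The part of fat-cell content in these relations was not tested.

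Cyp1b1 and Ephx1 had r below 0 with each of these 4 genes and with the adipocyte markers, most of which did not pass. Ephx1 was at -0.39 with Cyp2e1 (adjusted permutation p = 0.048), which passed in 1 of 4 alternatives, and at -0.38 to -0.28 with the other 3 genes and the markers (adjusted permutation p = 0.089 to 0.14). Cyp1b1 did not pass with Cyp2f2, Por or the markers. The pair were related to each other (r = 0.73, adjusted permutation p = 0.014; rho = 0.59, adjusted p = 0.072), a relation that passed neither without the 2 farthest libraries, at 0.66, nor in the 11 lymphoid-rich libraries, at 0.54. Cyp1b1 was inversely related to Cyp2e1 (r = -0.57, adjusted permutation p = 0.0066; rho = -0.72, adjusted p = 0.016), with -0.71 without the 2 farthest libraries and -0.57 in the 11 libraries; with the group means left in, it was -0.36 and did not pass. Its inverse relation to Ephx2 (r = -0.58, adjusted permutation p = 0.021; rho = -0.63, adjusted p = 0.040) passed neither without the 2 farthest libraries, at -0.54, nor in the 11 libraries, at -0.56. Cyp4b1 stood between these sets, at r = 0.67 with the adipocyte markers (0.39 without the 2 farthest libraries, which did not pass) and 0.30 with Cyp2e1.

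**Figure D3:**
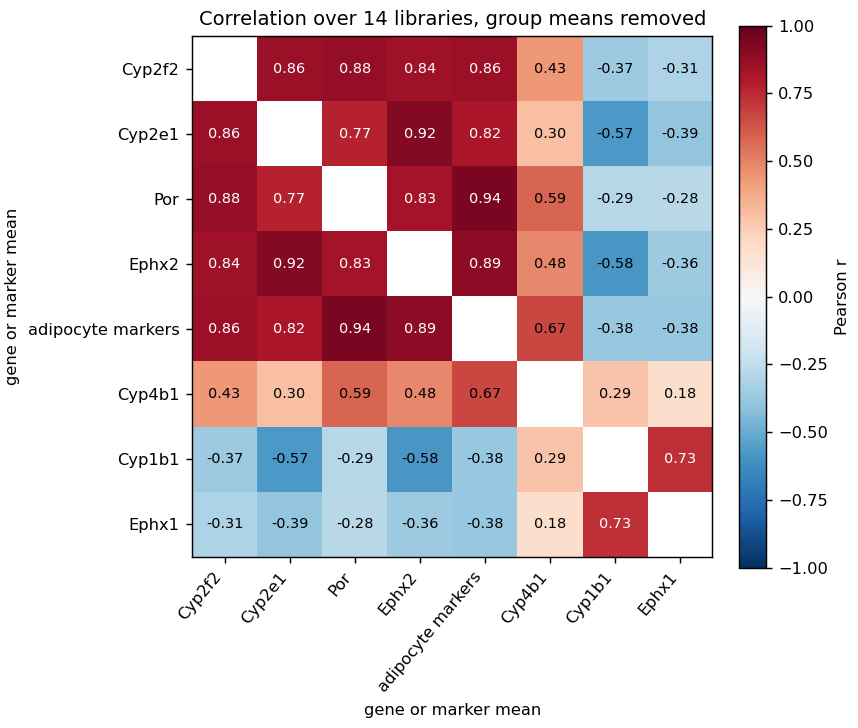
Pearson r between the 7 genes and the mean of the adipocyte markers over 14 libraries, each value being log2(TPM + 1) less the mean of its group, with red for positive and blue for negative r. Cyp2f2, Cyp2e1, Por, Ephx2 and the adipocyte markers form a block of 0.77 to 0.94, and the values of Cyp1b1 and Ephx1 against that block are -0.58 to -0.28, most of them not past the threshold.

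Which other genes had the most similar pattern was asked over the 9858 genes with a mean of at least 5 TPM, again less the group means and over 14 libraries; these values are descriptions of libraries that share tissue makeup. For Cyp2f2 the 5 closest were Igfals (r = 0.98), which encodes a carrier of insulin-like growth factors in blood, Hp (0.97), haptoglobin, Fah (0.95), the last enzyme of tyrosine breakdown, Rbp4 (0.95), the retinol carrier, and Igf1 (0.95). Each is a gene well known from liver, but not only from there, and the cells that made these transcripts here were not tested. Their r with Cyp2f2 in the 11 lymphoid-rich libraries was 0.95 to 0.98. For Cyp2e1 the 5 closest were Ppa1 (0.94), a pyrophosphatase, Mt1 (0.93), metallothionein, Ephx2 (0.92), Echdc3 (0.92) and Lman2l (0.92).

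The closest genes of the other 5 were looked up after the data were seen. For Cyp4b1 they were Tek (r = 0.98), Cdh13 (0.98), Tpst1 (0.97), Sparcl1 (0.97) and Eng (0.97), among them the angiopoietin receptor and endoglin of blood vessel endothelium. For Por they were led by Sfxn5 and Aco1, at 0.98 each, and for Ephx2 by Fcgrt and Sh3glb2, at 0.97 each. Cyp1b1 was closest to Zmym2 and F2r, at 0.97 each. Ephx1 was closest to Mmp23 (0.94) and to the macrophage complement gene C1qa (0.91), but these values were 0.67 and 0.58 in the 11 lymphoid-rich libraries.

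Liver is where most P450 genes are best known, and liver transcripts were present to an uneven degree. The 9 liver markers summed to 38.8 to 2592 TPM in KO and 27.9 to 5834 TPM in WT, with the highest values in KO replicate 6 and WT replicate 8 and none of the 9 listed at 0. Levels of Cyp2f2 and Cyp2e1 are given here for the library with the least Alb and for the library of each group with the most. WT replicate 6, with the lowest Alb of all libraries at 8.88 TPM, had the highest Cyp2f2, 251 TPM, and the highest Cyp2e1, 3287 TPM. WT replicate 8, with the highest Alb at 2153 TPM, came next for Cyp2f2 at 247 TPM and had Cyp2e1 at 2382.5 TPM, the WT median. KO replicate 6, with Alb at 879 TPM, had Cyp2f2 at 51.8 and Cyp2e1 at 827 TPM, near the KO medians. As a percentage of Adipoq, however, both genes were highest of their group in these same libraries with the most Alb, Cyp2f2 at 10.6% in WT replicate 8 and 4.56% in KO replicate 6, and Cyp2e1 at 102% and 72.9%. The part of liver RNA in these levels was not tested. With the liver marker mean as a covariate the log2 differences were -2.09 ± 0.39 (SE) for Cyp2f2 and -1.46 ± 0.32 for Cyp2e1. In the 9 libraries with Alb under 100 TPM (3 KO, 6 WT) they were -2.02 ± 0.57 and -1.26 ± 0.51. These values describe the contrast on which the genes were chosen. Lung epithelium is the other known site of Cyp2f2, and 2 of its 8 markers passed the filter. Of these, the club-cell marker Scgb1a1 was at 1.06 to 69.5 TPM in KO and 0.21 to 17.0 TPM in WT, with the highest value in KO replicate 7. The other, Sftpc, reached 23.5 TPM in WT replicate 4 and was listed at 0 in 2 of 14 libraries. Scgb3a2, which did not pass the filter, was listed at 0 in 10 of 14 libraries. The part of lung RNA in the level of Cyp2f2 was not tested. Ucp1, the brown-fat uncoupling protein, was at 5.16 TPM or less in all 14.

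**Figure D4:**
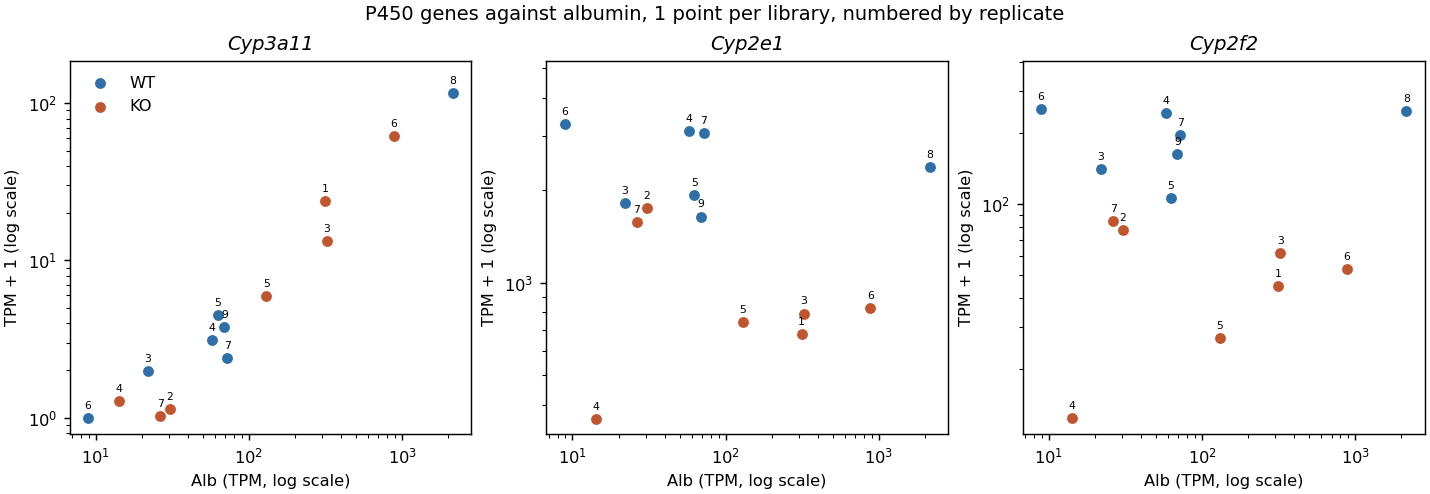
TPM + 1 of Cyp2f2, Cyp2e1 and Cyp3a11 against TPM of Alb in the 14 libraries, both on log axes, with WT and KO libraries as numbered points. Cyp3a11 is highest in replicate 8 of WT, at 115 TPM, and replicate 6 of KO, at 61.1 TPM, the libraries with the most Alb, while Cyp2f2 is at 251 TPM in WT replicate 6, which has the least, and at 247 TPM in WT replicate 8, and Cyp2e1 is highest in WT replicate 6.

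Other P450 genes were tested gene by gene, taken as symbols made of Cyp, a family number, a letter and a gene number. P450s with symbols of another form, such as Ptgis and Tbxas1, are not among them. Of 91 other P450 symbols, 9 were listed at 0 in all libraries and 22 passed the filter and were tested. None was called (limma, smallest adjusted p = 0.28), and 2 had an unadjusted p under 0.05, where 11.4% of all genes tested did. In KO 8 were lower and 14 higher, and the median log2 difference was 0.14. With library weights 3 of the 22 were called, all lower, in a fit that called 5.59% of all genes tested, 3.91% with KO lower. Together these other P450 genes amounted to 244 ± 104 TPM in KO and 267 ± 222 TPM in WT (SD, n = 7 each). The most abundant by mean were Cyp4f13, a fatty acid hydroxylase, at 29.1 ± 4.49 TPM in KO against 24.9 ± 5.39 in WT (limma adjusted p = 0.55), and Cyp27a1, the mitochondrial sterol 27-hydroxylase, at 23.8 ± 4.90 and 23.7 ± 6.15 (limma adjusted p = 0.97). Cyp4f18, known from neutrophils and other leukocytes, ranged from 1.72 to 43.0 TPM over the libraries. Cyp4v3, a fatty acid hydroxylase, and Cyp20a1, an orphan P450, were the genes with an unadjusted p under 0.05. Cyp4v3 was at 17.0 ± 4.83 TPM in KO against 25.9 ± 6.87 in WT (limma log2 difference -0.59 ± 0.19, adjusted p = 0.28) and Cyp20a1 at 12.7 ± 2.50 and 16.4 ± 2.36 (-0.36 ± 0.14, adjusted p = 0.38).

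Cyp2d22 was at 19.3 ± 6.18 TPM in KO against 16.5 ± 5.29 in WT, Cyp4f16 at 9.95 ± 1.64 and 9.96 ± 0.95, and Cyp2b13 at 9.99 ± 4.12 and 6.75 ± 3.22 (limma adjusted p = 0.73, 0.97 and 0.52). Many others were low except where liver transcripts were high. Of the 82 other P450 genes with any value above 0, 40 were highest in WT replicate 8, and 33 had WT replicate 8 and KO replicate 6 as their top libraries. Cyp3a11, a main drug-oxidising P450 of liver, was at 115 and 61.1 TPM in these libraries and at 22.9 TPM or less in the other 12. Cyp2j6, which was named after its values were seen, was at 5.64 ± 2.15 TPM in KO against 7.56 ± 1.68 in WT (limma adjusted p = 0.47).

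The surroundings of the P450 system were covered by 8 lists with 105 genes, none of them one of the 7, of which 85 were tested. None was called (limma, smallest adjusted p = 0.22), while 23 had an unadjusted p under 0.05, 22 of them lower in KO. Over all genes tested 11.4% had an unadjusted p under 0.05, 6.74% with KO lower, which also applies to the counts by list below. With library weights 11 of the 85 were called, all lower, against the 5.59% of all genes (3.91% lower) called in that fit. In all 71 of the 85 were lower in KO, where 45.4% of all genes tested were, and the median log2 difference was -0.26 against 0.04 over all genes; the adipocyte markers given above were lower in the same libraries, and their part in these values was not tested.

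Electron carriers next to Por included Cyb5a, cytochrome b5, at 554 ± 240 TPM in KO against 691 ± 145 in WT (SD, n = 7 each; limma adjusted p = 0.55), and Pgrmc1, a heme-binding partner of P450s, at 86.8 ± 25.6 and 115 ± 19.9 (adjusted p = 0.41). Of 10 such genes tested, 8 were lower and 2 had an unadjusted p under 0.05. For heme, the cofactor of every P450, 10 of 12 genes were lower; 6 were lower and 1 was higher at an unadjusted p under 0.05. The higher gene was Ppox, protoporphyrinogen oxidase, named after its values were seen, at 23.7 ± 4.26 TPM in KO against 18.1 ± 2.57 in WT (log2 difference 0.36 ± 0.13, limma adjusted p = 0.36). Alas1, the rate-limiting enzyme of heme synthesis, was at 185 ± 77.4 TPM in KO against 296 ± 66.4 in WT (log2 difference -0.77 ± 0.27, limma adjusted p = 0.33), and Blvrb, biliverdin reductase B, at 79.7 ± 10.8 and 109 ± 16.8 (-0.44 ± 0.12, limma adjusted p = 0.22). Alad and Hmox2 were at 64.5 ± 18.3 against 95.4 ± 26.2 and 53.7 ± 7.33 against 66.7 ± 5.88 TPM (limma adjusted p = 0.33 and 0.30).

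Among other epoxide hydrolases, Lta4h, the leukotriene A4 hydrolase, was at 45.0 ± 6.71 TPM in KO against 48.2 ± 10.5 in WT (limma adjusted p = 0.82), and Ephx3 at 0.92 ± 0.61 and 1.58 ± 0.84 (adjusted p = 0.49). Of 12 regulators of these genes, 11 were lower and none had an unadjusted p under 0.05. Cebpa was at 326 ± 145 TPM in KO against 424 ± 90.9 in WT, and Pparg at 137 ± 87.8 and 117 ± 54.5 (limma adjusted p = 0.51 and 0.92). The targets of the aryl hydrocarbon receptor other than Cyp1b1 were low in both groups: Tiparp was at 7.92 ± 2.68 and 11.1 ± 3.76 TPM, Nqo1 at 3.76 ± 1.78 and 5.42 ± 1.86, and Cyp1a1 at 2.42 ± 1.07 and 1.65 ± 0.41 (limma adjusted p = 0.48, 0.48 and 0.59).

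Of 21 flavin monooxygenases and other oxidases, 20 were lower in KO, with a median log2 difference of -0.54 and 8 with an unadjusted p under 0.05. Aldh2, which clears the acetaldehyde that Cyp2e1 and alcohol dehydrogenase form, was at 936 ± 365 TPM in KO against 1321 ± 284 in WT (log2 difference -0.57 ± 0.25, limma adjusted p = 0.42), and Fmo1 at 118 ± 47.1 and 172 ± 47.4 (-0.59 ± 0.25, adjusted p = 0.41). Of 11 conjugation enzymes and carboxylesterases, 9 were lower, with a median of -0.53. The carboxylesterase Ces1d was at 519 ± 269 and 810 ± 238 TPM (-0.76 ± 0.30, limma adjusted p = 0.39) and Ces1f at 101 ± 48.7 and 173 ± 43.3 (-0.89 ± 0.28, limma adjusted p = 0.27). For 12 further eicosanoid enzymes the median was -0.05 and 7 were lower. Among them were Ptgis and Tbxas1, which are P450s whose symbols do not begin with Cyp. Ltc4s, leukotriene C4 synthase, was at 114 ± 51.5 TPM in KO against 99.7 ± 17.4 in WT (limma adjusted p = 0.91).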

How the data were processed

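Adipose RNA of 14 mice, 7 per group, was available as 1 table of TPM values that the authors deposited, with a column for each library. Libraries were made from total RNA with an Illumina TruSeq kit, per the labels' protocols. Bowtie 0.12.2 and the builds mm8 and mm9 are named in the submitters' processing notes, with no role; for the quantifier, annotation and use of strand, these are not given in the sources available. TPM keeps no read number, so depth is unknown and no counting interval is given. TPM is also a share, so a rise of 1 abundant class lowers the rest.

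TPM of rows with the same symbol were summed (each of the 7 genes is 1 row). The 14719 genes that reached 1 TPM in 7 libraries or more were compared on log2(TPM + 1), which understates changes of low genes, by limma-trend with a robust prior (limma 3.58.1, R 4.3.3), 2-sided, with Benjamini-Hochberg adjustment over all of them and a threshold of 0.05. The steps were tested on simulated data. No 2 library columns are identical. Replicate numbers were not used as pairs in the main fit, and whether they pair the mice could not be decided from 5 shared numbers. Correlations used 100000 permutations within groups.

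The 7 genes, the gene lists and the tests were chosen with earlier results of these data known. Named genes were the 7, the most abundant tested genes of each list (up to 4, or up to 10 for other P450s) and the 5 genes most like Cyp2f2 and Cyp2e1. Not all of these are printed. Gene models of GENCODE M21 overlap Por, Ephx1 and Cyp2f2, with at most 2.04 TPM in any library. Alternatives changed the pseudocount, the filter or the scaling, kept rows unsummed, or used library weights, covariates, a replicate block or fewer libraries.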

Additional observations from a re-analysis of the deposited data

Results flagged for a closer look

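Values of 17 genes (the 7 and the 10 most abundant other P450s tested) were searched for single libraries far from the other 6 of their group, using the gap to the nearest library over the range of the group and a limit of 0.568. Of 34 groups 5 held such a library. The limit gives about 1 in 20 for independent groups of normally distributed values. TPM were not transformed and the genes share libraries, so the count is not compared with that rate. Ephx1 in WT replicate 4 was at 27.28 TPM against 67.87 to 85.68 TPM in the other WT libraries (ratio 0.695). That library is 1 of the 3 with little Cd79a. Cyp3a11 was at 114.98 TPM in WT replicate 8, against 0 to 3.48 TPM in the other WT libraries (ratio 0.970), and at 61.1 TPM in KO replicate 6, against 0.02 to 22.89 TPM in the other KO libraries (ratio 0.626). Cyp2d9 was at 74.83 TPM in WT replicate 8, against 0.11 to 2.13 TPM (ratio 0.973), and at 25.16 TPM in KO replicate 6, against 0.24 to 10.25 TPM (ratio 0.598). WT replicate 8 and KO replicate 6 have the highest Alb of their groups, 2153 and 879 TPM.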

How the results depend on the processing

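Over 28 alternatives the log2 difference stayed between -2.22 and -1.49 for Cyp2f2, -1.73 and -1.04 for Cyp2e1, -1.09 and -0.43 for Por and -1.001 and -0.31 for Ephx2, all below 0; for Por and Ephx2 the values nearest 0 were those with the adipocyte covariate. The sign held in 27 of 28 for Cyp4b1, 26 for Ephx1 and 16 for Cyp1b1. Since the genes were chosen on this contrast in these same libraries, these values and signs are descriptions only. The count of genes called over the whole table, 3 here, was 1 with no filter and 1 with rows as deposited. It was 19 with quantile normalization (6 lower, 13 higher) and 8 with median-ratio scaling (5 lower, 3 higher). With the adipocyte covariate it was 9 (4 lower, 5 higher), and with library weights 823 (575 lower, 248 higher). In the 11 lymphoid-rich libraries it was 0, as in the 9 libraries with Alb under 100 TPM. Leaving out 1 library gave 0 to 6. The cause of these changes was not tested. Library weights called 3 other P450s (Cyp4v3, Cyp20a1 and Cyp2j6) and 11 pathway genes, among them Alas1, Blvrb and Ces1f, all lower in KO; the remaining alternatives called 0 of either. Same-numbered libraries deviated together in some pairs and in opposite ways in others (r -0.67 to 0.80 over 5 pairs, 3 over 0.1). Of 5 KO libraries, 2 were closest to their own number. So few pairs cannot decide whether the numbers pair the mice. With the replicate block in these 10 libraries 0 genes were called, as in the same 10 without the block. Of 112 alternative values of the correlations, 94 kept direction and side of the threshold, 17 no longer passed and 1 reversed (Cyp2f2 with Cyp4b1, 0.43, and -0.016 without the 2 farthest libraries). The liver covariate and the Alb limit were chosen after seeing the data. Unknown depth limits statements on genes near 0 TPM.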
